A study of Mus musculus with 42 samples.

Results

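Wild-type (WT) mouse macrophages were compared between 2 h and 24 h of lipopolysaccharide (LPS). The 3 libraries labelled BMDM_WT_LPS_24h were set directly against the 3 labelled BMDM_WT_LPS_2h, which are 6 of the 42 RNA-seq libraries of the series. The series covers macrophages grown from bone marrow, labelled WT or KO, that were left as Control, given palmitate or given LPS, in 14 groups of 3 libraries. KO stands for mice with an Irf5 gene flanked by loxP sites and Cre recombinase under the LysM promoter, which is active in myeloid cells, and WT for male littermates. The cells were differentiated in medium conditioned by L929 fibroblasts, a source of the growth factor M-CSF, so the WT groups used here share genotype and culture and differ in LPS and in hours. These are macrophages of 1 culture system and not of a tissue, and no source used here says whether the 3 libraries of a group came from separate mice or cultures. The p-values below therefore measure the spread between these libraries, which may be technical. Libraries are numbered 1 to 3 within a group in the order of the deposited table.

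LPS, a cell wall lipid of Gram-negative bacteria, is sensed by Toll-like receptor 4 (Tlr4) with its partners Cd14 and Ly96. The receptor signals through Myd88 to NF-kappaB and MAP kinases, which switch on cytokine and immediate early genes, and through Ticam1 to IRF transcription factors and interferon beta. Interferon beta leaves the cell, binds its receptor and, through STAT and IRF factors, switches on a later set of antiviral and antigen presentation genes. Many early transcripts are short-lived and are held down by inhibitors that are themselves induced.

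The total count was 3091726, 5563873 and 6003042 in the LPS 2 h libraries and 5720446, 6218877 and 6394819 in the LPS 24 h libraries. Levels are given below as CPM, the count of a gene relative to its library total, scaled between libraries by the TMM method, and changes as log2 fold changes at 24 h over 2 h with the standard error (SE) of the fit. Calls rest on edgeR's quasi-likelihood test, with Benjamini-Hochberg adjustment over 11624 genes and a threshold of 0.05. The 12 macrophage marker genes were all tested, 6 were higher at 24 h and 3 lower (Cd14, Mrc1 and Cd68), and their summed level was 15842 to 17381 CPM at 2 h and 19431 to 24793 CPM at 24 h. Csf1r, the receptor for M-CSF, was at 1994, 2080 and 1964 CPM at 2 h and at 1945, 2575 and 2002 CPM at 24 h, and was not called (0.11). It passed the test with library totals (0.28, adjusted p = 0.00017), without LPS 24 h library 1 (0.20, adjusted p = 0.0241) and without LPS 24 h library 3 (0.18, adjusted p = 0.0483). Markers of other cells were low at both times: the 8 T or NK cell genes summed to at most 2.47 CPM, the 8 fibroblast genes to at most 5.13 CPM, the 7 dendritic cell genes to at most 9.93 CPM and the 7 B cell genes to at most 11.1 CPM in these 6 libraries. The 6 erythroid genes in the table summed to at most 1.49 CPM. The 11 granulocyte genes summed to 45.4 to 67.2 CPM at 2 h and 30.95 to 33.72 CPM at 24 h, with Ltf, S100a9 and Ngp lower, S100a8 higher, and 2 of the 11 at 0 counts in each group. In the other groups used below, the fibroblast genes varied more between libraries. They summed to 2.90 to 60.6 CPM in WT Control 2 h and 2.81 to 46.6 CPM in WT Control 24 h. In KO LPS 2 h they summed to 3.04 to 161 CPM and in KO LPS 24 h to 1.68 to 178 CPM. The part of granulocytes and fibroblasts in the results was not tested.

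Between 2 h and 24 h of LPS, 5512 of 11624 genes were called (47.4%), 2613 of them higher at 24 h (22.5%) and 2899 lower (24.9%). Restricted to changes over 1 on the log2 scale, 1922 genes were called (16.5%), 799 higher (6.87%) and 1123 lower (9.66%). The 3 libraries of one time did not overlap those of the other for 6043 genes, 52% of those tested (26.1% higher and 25.9% lower at 24 h). The split between higher and lower depended on the scaling. With library totals in place of TMM, 65.3% of the called genes were higher, against 47.4% with TMM, and the median change of all genes was 0.19 instead of 0.02. A shift of this size matters for lists with small changes and is given beside them. Of the 5512 calls, 3674 were made in the same direction in each of 11 other fits, which were 5 other settings and 6 that left out a library.

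**Figure D1:**
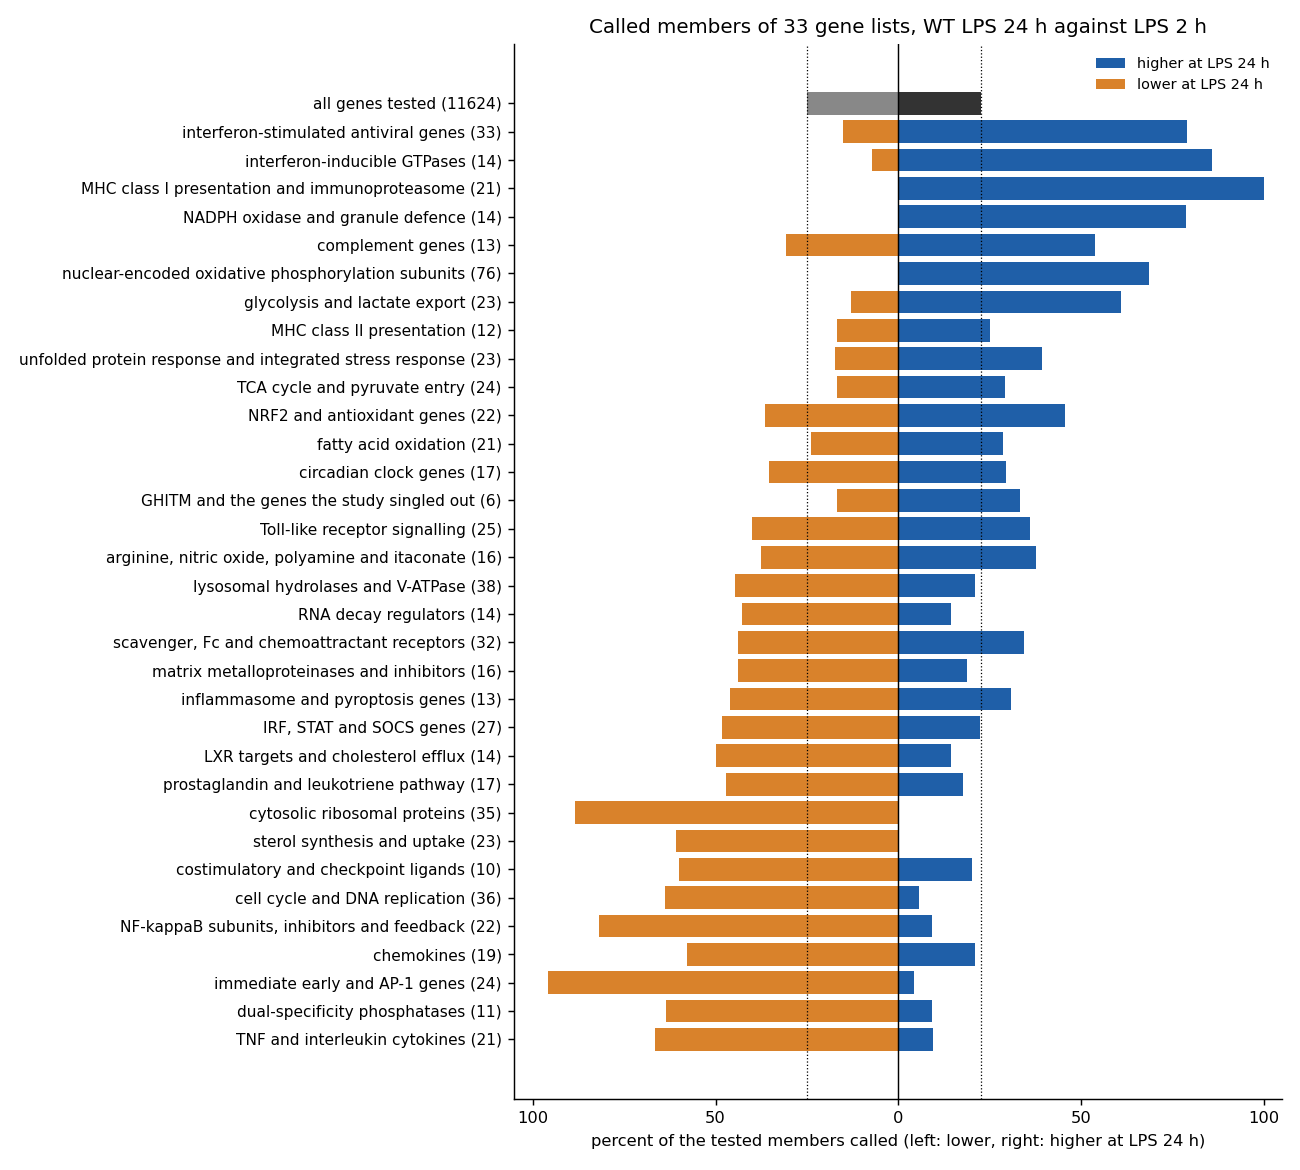
Bars show the percent of the tested members of 33 gene lists that were called lower (left) or higher (right) at LPS 24 h than at LPS 2 h in WT, with the number tested in brackets and lists ordered by their median change. The top row and the dotted lines give the share over all genes tested, 24.9% lower and 22.5% higher.

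The immediate early genes, which a signal induces without new protein synthesis and many of which encode transcription factors, were lower at 24 h. Of 24 tested, 23 fell and 1 rose, and the median log2 fold change was -2.61. Egr1, a zinc finger factor, was at 97.0, 104 and 122 CPM at 2 h and at 6.16, 7.78 and 3.98 CPM at 24 h (log2 fold change -4.18, SE 0.21, adjusted p = 1.32e-22), and the lowest library at 2 h was well above the highest at 24 h. Nr4a1, an orphan nuclear receptor, changed by -5.29 (SE 0.34) and Maff, a small Maf factor, by -5.48 (SE 0.18). Fosb, a partner of Jun in AP-1, had 100 counts in all at 2 h and none at 24 h, which is at least 13.9-fold lower against a floor of 3 counts per library. Fos itself fell less than these, with 69.4, 79.3 and 71.7 CPM at 2 h and 37.3, 40.4 and 42.4 CPM at 24 h, a change of -0.88 (SE 0.12). Its level in Control fell alike, by 0.85 on the log2 scale from 2 to 24 h. A difference between the change with LPS and that in Control was not called for 7 of the 24 genes, so Fos was not alone in this. The member that rose was Klf10, by 0.36 (SE 0.12, adjusted p = 0.0133), a call lost without LPS 2 h library 1 (adjusted p = 0.0842) or without LPS 24 h library 2 (adjusted p = 0.0735).

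Among the dual-specificity phosphatases, which switch off MAP kinases, 7 of 11 tested fell and 1 rose. Dusp1 was at 233, 245 and 272 CPM at 2 h and at 13.5, 14.9 and 10.9 CPM at 24 h (log2 fold change -4.26, SE 0.14), and its exons overlap those of Ergic1. Dusp6, the phosphatase of Erk, went the other way: 5.37, 8.43 and 7.99 CPM at 2 h and 27.7, 22.3 and 31.8 CPM at 24 h, a change of 1.86 (SE 0.18, adjusted p = 1.84e-12). Against Control of the same hour, Dusp6 was lower by 2.52 on the log2 scale at 2 h and did not pass the test at 24 h (-0.13, SE 0.14).

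In the NF-kappaB list of subunits, inhibitors and feedback genes, 18 of 22 tested fell and 2 rose (median -1.44). Tnfaip3, the ubiquitin-editing enzyme A20, was at 2179, 2190 and 2161 CPM at 2 h and at 60.9, 56.1 and 60.6 CPM at 24 h, 36.7-fold lower (log2 fold change -5.20, SE 0.07, adjusted p = 1.65e-45). Nfkbia, which encodes the inhibitor IkappaB-alpha, was at 1046, 1011 and 1037 CPM at 2 h and at 126, 139 and 129 CPM at 24 h (log2 fold change -2.97, SE 0.08). Nfkbiz, an atypical nuclear inhibitor that also activates some targets, fell by 4.03 (SE 0.10) and the subunit Rel by 3.21 (SE 0.11). Their groups did not overlap. The 2 members that rose were Irak3, a brake on Toll-like receptor signalling expressed in myeloid cells, by 1.30 (SE 0.11), and Ikbke, a kinase of IRF factors, by 0.59 (SE 0.11). Irak3 shares exon positions with Tmbim4, and the 2 groups overlapped for Ikbke.

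Among 14 RNA decay regulators, 6 fell and 2 rose, or 5 and 4 with library totals, and 1 rose without LPS 24 h library 1. The shares lower and higher were 42.9% and 14.3%, beside 24.9% and 22.5% over all genes. Zfp36, which binds AU-rich elements and speeds the decay of cytokine transcripts, was at 446, 460 and 470 CPM at 2 h and at 51.7, 41.5 and 49.0 CPM at 24 h (log2 fold change -3.28, SE 0.10). The ribonuclease Zc3h12a changed by -2.49 (SE 0.11). Zfp36l2, a paralog of Zfp36, rose, from 91.94, 105.2 and 113.8 CPM to 221, 246 and 219 CPM (log2 fold change 1.13, SE 0.09). The list median of -0.15 became 0.02 with library totals, so the sign of the median depended on the scaling.

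Of 21 tested members of the TNF and interleukin list, 14 fell and 2 rose, with a median of -2.88, or -2.71 with genes at 0 counts set at their bound, the lowest median of the 33 gene lists either way. Tnf was at 2023, 1917 and 2023 CPM at 2 h and at 67.3, 55.3 and 55.7 CPM at 24 h, 33.5-fold lower (log2 fold change -5.07, SE 0.09, adjusted p = 6.34e-41). It had not returned to Control, since Control 24 h had a mean of 19.7 CPM and LPS 24 h was higher by 1.57 (SE 0.12). Il1b, which encodes interleukin 1 beta, was at 686, 832 and 651 CPM and then at 36.8, 50.1 and 37.1 CPM (log2 fold change -4.13, SE 0.13), and stayed above Control at 24 h by 5.45 (SE 0.31). Il6 was at 34.4, 36.8 and 45.9 CPM at 2 h and at 1.03, 0.331 and 1.07 CPM at 24 h (log2 fold change -5.55, SE 0.41). The groups did not overlap for any of these 3 genes. The anti-inflammatory cytokine Il10 was at 28.98, 39.46 and 31.02 CPM at 2 h and at 4.62, 4.30 and 4.59 CPM at 24 h (log2 fold change -2.88, SE 0.27). Il12b, a shared subunit of interleukins 12 and 23, changed by -4.10 (SE 0.30).

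Ifnb1, the gene of interferon beta, was at 19.3, 31.9 and 27.7 CPM at 2 h, and no count was found in any LPS 24 h library. With 358 counts against 0, it was at least 53.7-fold lower, again against 3 counts per library (adjusted p = 3.67e-12). Lif, a cytokine of the interleukin 6 family, had 278 counts at 2 h and 3 at 24 h, a ratio of 131 with a 95% exact interval of 44.3 to 638 that covers counting error only. Il23a had 37 counts at 2 h and 0 at 24 h, at least 6.56-fold lower. The 2 members that rose were Ebi3, by 0.56 (SE 0.11), and Tnfsf10, which encodes the death ligand TRAIL, by 1.36 (SE 0.56, adjusted p = 0.0416). The call of Tnfsf10 was lost with DESeq2 (adjusted p = 0.173) and without any 1 of 5 libraries, which were the 3 at 2 h and libraries 1 and 3 at 24 h (adjusted p from 0.0754 to 0.125).

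Chemokines went both ways. Of 19 tested, 11 fell and 4 rose (median -1.86). The neutrophil attractants Cxcl1 and Cxcl2 were among the 10 largest falls: Cxcl1 was at 366, 346 and 345 CPM at 2 h and at 3.94, 1.32 and 1.23 CPM at 24 h (log2 fold change -7.36, SE 0.20), and Cxcl2 changed by -6.00 (SE 0.17). Ccl3, a chemokine that draws monocytes, was at 696, 684 and 714 CPM and then at 63.3, 46.2 and 49.8 CPM (log2 fold change -3.72, SE 0.11). Ccl5, which draws T cells and monocytes, went the opposite way, with 130, 157 and 155 CPM at 2 h and 1996, 1902 and 2055 CPM at 24 h, 13.4-fold higher (log2 fold change 3.74, SE 0.09, adjusted p = 6.88e-37). The T cell attractants of Cxcr3 also parted. Cxcl10 was at 528, 663 and 534 CPM and then at 7.53, 7.78 and 8.27 CPM (log2 fold change -6.19, SE 0.13), while Cxcl9 was at 6.80, 2.47 and 2.79 CPM and then at 40.2, 35.3 and 48.4 CPM (log2 fold change 3.49, SE 0.36). Cxcl16 and Ccl8 were the other chemokines that rose. Ccl8 had a mean of 0.316 CPM at 2 h and 2.13 CPM at 24 h, and its call (2.43, SE 0.91, adjusted p = 0.0247) was lost without LPS 2 h library 1 (adjusted p = 0.0771), without LPS 2 h library 2 (adjusted p = 0.0949) or without LPS 24 h library 1 (adjusted p = 0.0784).

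**Figure D2:**
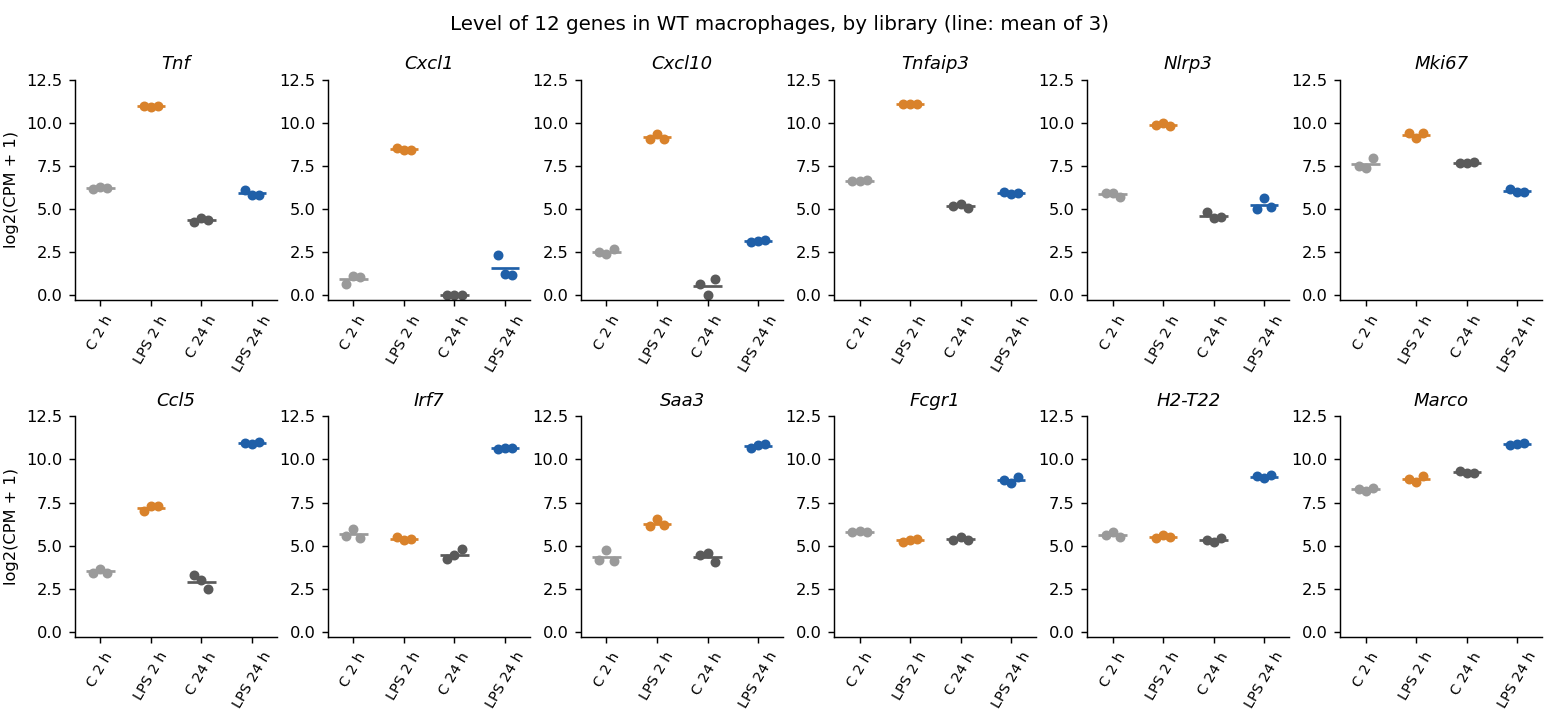
Each point is 1 WT library and each line the mean of 3, as log2(CPM + 1), for Control (C) and LPS at 2 and 24 h. In the top row the LPS 2 h libraries are the highest of the 4 groups, and in the bottom row the LPS 24 h libraries are, with no overlap between the 2 LPS groups in any of the 12 genes.

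Genes of prostaglandin metabolism and of the inflammasome went both ways. Ptgs2, the inducible cyclooxygenase, was at 276, 331 and 260 CPM at 2 h and at 16.1, 23.2 and 12.3 CPM at 24 h (log2 fold change -4.08, SE 0.18). Ptges, which makes prostaglandin E2 from its product, was higher at 24 h instead, at 65.0, 84.6 and 70.1 CPM after 37.6, 31.9 and 28.8 CPM (log2 fold change 1.18, SE 0.15). The groups did not overlap for either enzyme. Hpgd, which inactivates prostaglandin E2, was at 63.7, 71.9 and 56.8 CPM and then at 3.94, 5.63 and 3.67 CPM, a change of -3.86 (SE 0.18), and its 24 h level was below Control by 4.88 (SE 0.16) while its 2 h level had not passed the test against Control (-0.16, SE 0.12). The count of 8 lower and 3 higher members in the prostaglandin list of 17 became 6 and 7 with library totals, and 5 were lower without any 1 of 4 libraries (LPS 2 h library 2 or 3, LPS 24 h library 1 or 3) or in the fit of the libraries compared. Without LPS 24 h library 1, 5 were higher. Nlrp3, the sensor of the inflammasome, was at 933, 998 and 881 CPM and then at 31.2, 48.2 and 33.5 CPM (log2 fold change -4.64, SE 0.11). The executioners Casp1 and Gsdmd were higher at 24 h, by 0.72 (SE 0.12) and 1.19 (SE 0.10). Of the 13 inflammasome genes tested, 4 rose and 6 fell, or 4 and 3 with library totals. The shares higher and lower were 17.65% and 47.06% for the prostaglandin list and 30.77% and 46.15% for the inflammasome list. Over all genes they were 22.5% and 24.9%.

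The genes with the largest falls by the fixed rule were Ifnb1, Slco2b1, Cxcl1, Lif, Cd83, Tnfsf9, Cxcl10, Rnd1, Cxcl2 and Gem. Slco2b1, an organic anion transporter, had 140 counts at 2 h and none at 24 h, at least 23.3-fold lower. It was present in Control as well (means of 7.59 and 6.19 CPM at 2 and 24 h). Cd83, a costimulatory surface protein, was at 331, 354 and 326 CPM at 2 h and at 4.11, 4.97 and 3.52 CPM at 24 h (log2 fold change -6.33, SE 0.15). That is below Control 24 h, by 1.99 (SE 0.21). Tnfsf9, the ligand 4-1BBL, was at 181, 187 and 185 CPM and then at 1.20, 3.64 and 1.99 CPM (log2 fold change -6.32, SE 0.21). The receptor Cd40 changed by -2.77 (SE 0.15), and in all 6 of 10 costimulatory and checkpoint genes fell. The 2 that rose were Lgals9, a galectin, by 2.35 (SE 0.11), and Cd274, which encodes PD-L1, by 0.48 (SE 0.08).

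Interferon-stimulated antiviral genes were higher at 24 h. Of 33 tested, 26 rose and 5 fell, with a median of 2.06 and a range from -1.61 to 4.84. Ifi44 was at 7.16, 5.76 and 8.54 CPM at 2 h and at 215, 186 and 221 CPM at 24 h (log2 fold change 4.84, SE 0.21, adjusted p = 4.01e-25). Zbp1, a sensor of Z-form nucleic acid, was at 23.3, 17.9 and 20.4 CPM and then at 348, 314 and 360 CPM (log2 fold change 4.08, SE 0.14). Isg15, a ubiquitin-like modifier, was at 70.5, 64.9 and 61.7 CPM and then at 173, 133 and 167 CPM (log2 fold change 1.27, SE 0.13). None of these 3 had overlapping groups. The 5 that fell were Mx2, Rsad2, Ifih1, Cmpk2 and Ifit1, which had been induced at 2 h. Induction at 2 h was not particular to them, since 24 of the 33 were called above Control at 2 h. At 24 h all 33 were above Control. Over all genes 23.1% were called in either direction at 2 h and 39.5% at 24 h. Rsad2, which encodes viperin, was at 949, 1090 and 941 CPM at 2 h and at 378, 271 and 376 CPM at 24 h (log2 fold change -1.54, SE 0.11). Its level remained above Control by 5.66 (SE 0.14) at 2 h and 5.17 (SE 0.16) at 24 h. Ifit1 was above Control by 5.73 (SE 0.14) at 2 h and by 6.18 (SE 0.15) at 24 h, although it was lower at 24 h than at 2 h of LPS by 0.36 (SE 0.09). That call was lost with library totals (-0.19, adjusted p = 0.0954) and without LPS 2 h library 2 (-0.19, adjusted p = 0.109). Mx1 was at 141, 153 and 185 CPM and then at 214, 118 and 222 CPM, did not pass the test (0.20, SE 0.16, adjusted p = 0.338), and passed it without LPS 24 h library 2 (0.45, adjusted p = 0.0148). Members of the Ifit, Oas and Mx families are close paralogs, so the split of reads between them is uncertain.

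In the IRF, STAT and SOCS list, 6 of 27 tested rose and 13 fell (median -0.32), which became 10 and 10 with library totals. As shares these were 22.2% higher and 48.15% lower, beside 22.5% and 24.9% over all genes, so the share that rose was near the background. Irf7, the factor that amplifies the interferon response, was at 44.7, 38.4 and 40.3 CPM at 2 h and at 1547, 1630 and 1642 CPM at 24 h, 39.4-fold higher (log2 fold change 5.30, SE 0.21, adjusted p = 1.78e-27). At 2 h its level had not passed the test against Control (-0.30, SE 0.23). Its exons overlap those of Phrf1. Stat2, a partner of Irf9, rose by 2.60 (SE 0.11). Irf1, an early IRF, ran the other way, at 531, 496 and 494 CPM and then at 90.0, 78.9 and 92.5 CPM (log2 fold change -2.54, SE 0.09), with exons that overlap Gm17334. Socs3, a feedback inhibitor of cytokine signalling, was at 756, 822 and 708 CPM and then at 35.3, 46.2 and 40.4 CPM (log2 fold change -4.23, SE 0.11), and Cish, a target of Stat5, changed by -4.77 (SE 0.39).

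Irf5, an IRF that Toll-like receptors activate in macrophages, was at 389, 377 and 373 CPM at 2 h and at 265, 254 and 252 CPM at 24 h. It fell by 0.56 on the log2 scale (SE 0.06, adjusted p = 3.64e-12), with no overlap between the groups. Its exons overlap those of Tnpo3.

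Interferon-inducible GTPases, which attack the vacuoles of intracellular microbes, rose in 12 of 14 tested (median 1.92), and 1 fell. Gbp2 was at 68.7, 75.0 and 66.3 CPM and then at 365, 302 and 370 CPM (log2 fold change 2.30, SE 0.11). Gbp2b was at 480, 449 and 467 CPM at 2 h and at 69.7, 49.8 and 67.7 CPM at 24 h (log2 fold change -2.90, SE 0.12). In Control at 2 h the means were 5.88 CPM for Gbp2 and 4.06 CPM for Gbp2b. The exons of Gbp4, Gbp8 and Gbp9 overlap, and their values are uncertain. Some Gbp genes of the list were not analysed here.

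All 21 tested genes of MHC class I presentation and the immunoproteasome rose, with a median of 1.48 and a range from 0.44 to 3.60. H2-K1, a classical class I heavy chain, was at 930.5, 1083 and 978 CPM at 2 h and at 2624, 2910 and 2834 CPM at 24 h (log2 fold change 1.48, SE 0.07, adjusted p = 8.01e-25). H2-T22, a non-classical heavy chain, was at 42.2, 48.3 and 44.4 CPM and then at 517, 489 and 541 CPM (log2 fold change 3.51, SE 0.10). The peptide transporter Tap1 changed by 2.43 and the immunoproteasome subunit Psmb8 by 1.92. The H2 genes of class I are near-identical copies, and reads may be split between them. Of 12 MHC class II genes tested, 3 rose (25%) and 2 fell (16.67%), near the shares over all genes of 22.5% and 24.9%, or 5 and 1 with library totals or without LPS 2 h library 2. Ciita, the master regulator of class II, was at 3.94, 2.67 and 5.76 CPM and then at 4.11, 7.94 and 4.29 CPM and was not called (0.38, SE 0.37). H2-Aa, a class II chain, fell by 0.50 (SE 0.19, adjusted p = 0.0267), a call lost with library totals (adjusted p = 0.138), with DESeq2 (adjusted p = 0.0567) and without LPS 2 h library 2 (adjusted p = 0.392), LPS 24 h library 1 (adjusted p = 0.153) or LPS 24 h library 3 (adjusted p = 0.139).

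Promoter windows of 60 bases show the letters that stand before the start of some of these genes. They are from RefSeq (GRCm38.p6), 5′ to 3′ on the strand of the gene, within the 250 bases before its annotated start. Capitals mark matches on either strand to GGGANTTTC, a kappaB site, in the first group of 3, and to GAAANNGAA, the core of the interferon-stimulated response element (ISRE), in the others, and where matches touch they run together. The kappaB letters also stand before genes that rose, such as Cxcl9 (3.49) and Ms4a6c (2.11), whose windows are not shown. The first group are cytokine genes that fell.
Cxcl1, chr5:90891149-90891208, plus strand: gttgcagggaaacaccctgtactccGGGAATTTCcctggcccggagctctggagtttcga
Cxcl2, chr5:90903777-90903836, plus strand: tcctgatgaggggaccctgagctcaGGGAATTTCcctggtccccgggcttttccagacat
Il6, chr5:30013045-30013104, plus strand: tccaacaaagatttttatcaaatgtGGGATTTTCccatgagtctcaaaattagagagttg
The second group are interferon-stimulated genes that rose.
Isg15, chr4:156200862-156200921, minus strand: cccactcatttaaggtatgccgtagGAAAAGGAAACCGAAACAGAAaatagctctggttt
Gbp2, chr3:142620580-142620639, plus strand: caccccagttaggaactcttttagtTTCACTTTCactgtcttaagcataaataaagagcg
H2-T22, chr17:36042898-36042957, minus strand: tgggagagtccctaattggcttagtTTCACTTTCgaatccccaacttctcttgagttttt
Apol9a, chr15:77411104-77411163, minus strand: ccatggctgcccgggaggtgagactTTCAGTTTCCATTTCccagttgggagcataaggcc
The third group also hold the ISRE core and fell.
Ifit1, chr19:34640755-34640814, plus strand: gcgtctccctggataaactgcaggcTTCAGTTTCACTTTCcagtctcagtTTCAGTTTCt
Gbp2b, chr3:142594686-142594745, plus strand: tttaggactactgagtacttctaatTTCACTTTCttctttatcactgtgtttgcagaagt
Cxcl10, chr5:92349068-92349127, minus strand: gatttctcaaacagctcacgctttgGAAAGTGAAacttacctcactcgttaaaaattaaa

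Over the 250 bases before the start, GAAANNGAA was found in 534 of 8153 promoters of tested genes (6.55%). It was found in 44 of the 167 promoters of genes that were called higher by over 2 on the log2 scale (26.3%) and in 18 of 253 of those lower by as much (7.11%). Within the antiviral list it was found in 9 of 21 promoters of genes that rose and in 3 of 4 of genes that fell. GGGANTTTC was found in 66 of 8153 promoters (0.81%), in 5 of the 167 (2.99%) and in 6 of the 253 (2.37%). TGANTCA, an AP-1 site, was in 322 of all (3.95%), 21 of the 167 (12.6%) and 19 of the 253 (7.51%). TTCNNNGAA, a STAT site whose letters can overlap the ISRE core, was in 476 (5.84%), 22 (13.2%) and 16 (6.32%), and TGACGTCA, the cAMP response element, in 239 (2.93%), 1 (0.60%) and 8 (3.16%). CATATTAGG, of the serum response element, was in 3 of 8153 promoters and in none of these 167 or 253. These counts describe letters in a window and not bound sites.

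The genes with the largest rises by the fixed rule were Susd2, Ms4a4c, Ly6i, Apol9a, Ly6a, Lcn2, Irf7, Bmp1, Slfn1 and Cd300e. Ms4a4c, a membrane protein of the Ms4a family, was at 2.15, 0.822 and 1.67 CPM at 2 h and at 215, 157 and 212 CPM at 24 h (log2 fold change 7.04, SE 0.28, adjusted p = 4.64e-27). Ly6a, which encodes Sca-1, was at 0, 3.08 and 1.11 CPM and then at 109, 112 and 119 CPM (log2 fold change 6.13, SE 0.32). Susd2, a sushi domain protein, was at 0, 0.617 and 0.186 CPM and then at 49.1, 60.9 and 47.8 CPM (log2 fold change 7.33, SE 0.49). Apol9a rests on 2 counts at 2 h and 337 at 24 h, a ratio of 119 with a 95% exact interval of 32.8 to 989.5 for counting error.

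Many of these late genes sit side by side. Of 249 genes called higher by over 2 on the log2 scale, 98 (39.4%) lay within 200000 bases of another of the set, against 61 of 396 (15.4%) of those lower by as much. The share for sets of this size taken from all tested genes was not computed. Runs of at least 4 such genes were found at 8 places for the higher set and at none for the lower. The Ms4a run on chromosome 19 (11404770 to 11604849) held Ms4a4c, Ms4a6c, Ms4a6b and Ms4a6d, all 4 of the tested genes there, with changes of 2.10 to 7.04. The Ly6 run on chromosome 15 (74955051 to 75111970) held Ly6e, Ly6i, Ly6a and Ly6c2, again all 4 tested, with changes of 2.95 to 6.82. On chromosome 1 (173468485 to 173698395) the 5 interferon-inducible p200 genes Ifi206, Ifi214, Ifi213, Ifi209 and Ifi208 changed by 2.19 to 4.76, and on chromosome 14 (59276913 to 59395381) the 4 Phf11 genes by 2.01 to 4.14. The Oas genes on chromosome 5 (120753098 to 120907521) gave 4 of 5 tested, the Trim30 genes on chromosome 7 (104355382 to 104507849) 4 of 5, and a stretch of chromosome 11 (48887422 to 49135387) with GTPases such as Ifi47 and Tgtp2 7 of 8. The eighth place, on chromosome 7 (141009586 to 141444025), held Ifitm3, Ifitm6, Rassf7, Irf7 and Pidd1, 5 of 15 tested. Positions are those of GENCODE M21 on GRCm38. Many members of a run are paralogs that may share reads, so they do not count as separate observations.

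Of 14 tested genes of the NADPH oxidase and granule defence list, 11 rose and none fell in edgeR's test (median 0.72). Saa3, an acute phase apolipoprotein, was at 69.4, 91.5 and 71.3 CPM at 2 h and at 1633, 1818 and 1883 CPM at 24 h, 22.8-fold higher (log2 fold change 4.51, SE 0.14). Lcn2, which binds bacterial siderophores, was at 8.23, 4.73 and 10.8 CPM and then at 314, 421 and 307 CPM (log2 fold change 5.44, SE 0.23). The scavenger receptor Marco was at 457, 413 and 526 CPM and then at 1853, 1928 and 1983 CPM (log2 fold change 2.04, SE 0.10). Cybb and Ncf1, subunits of the oxidase, changed by 1.01 and 0.71. Complement genes went both ways, with 7 of 13 higher and 4 lower. C3 was at 354, 334 and 316 CPM and then at 2938, 3420 and 3055 CPM (log2 fold change 3.23, SE 0.10). Cfb, the protease partner of C3, rests on 3 counts at 2 h and 132 at 24 h (ratio 31.2, 95% exact interval 10.4 to 153).

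Surface receptors went both ways. Of 32 scavenger, Fc and chemoattractant receptors tested, 11 rose and 14 fell, or 14 and 13 with library totals. Fcgr1, the high-affinity receptor for IgG, was at 36.5, 39.9 and 40.5 CPM at 2 h and at 445, 399 and 496 CPM at 24 h (log2 fold change 3.51, SE 0.12). Mrc1, the mannose receptor and a marker of alternatively activated macrophages, was at 497, 649 and 578 CPM and then at 53.7, 42.5 and 65.4 CPM (log2 fold change -3.41, SE 0.12). Mrc1 had not passed the test against Control at 2 h (0.21, SE 0.10) and was below it at 24 h by 2.17 (SE 0.12). Cd14 and Tlr2, which bind bacterial lipids, fell by 2.05 (SE 0.12) and 2.73 (SE 0.10), and both stood above Control at 2 h. Tlr4 itself was at 62.6, 54.5 and 53.7 CPM and then at 80.1, 87.2 and 84.2 CPM (log2 fold change 0.57, SE 0.10). The endosomal receptors Tlr3 and Tlr9 rose by 1.54 (SE 0.21) and 1.48 (SE 0.14). In the Toll-like receptor list of 25 tested, 9 rose and 10 fell, or 11 and 7 with library totals.

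Genes of arginine and itaconate metabolism changed one by one, with 6 of 16 higher and 6 lower. Acod1, which makes itaconate from the TCA cycle intermediate cis-aconitate, was at 2350, 2504 and 2239 CPM at 2 h and at 602, 627 and 551 CPM at 24 h (log2 fold change -2.00, SE 0.12). Nos2, the inducible nitric oxide synthase, was at 6.80, 6.99 and 3.34 CPM and then at 12.8, 20.2 and 14.5 CPM (log2 fold change 1.51, SE 0.36, adjusted p = 0.000532). Ass1, which regenerates arginine from citrulline, was at 16.1, 21.2 and 20.6 CPM and then at 262, 355 and 256 CPM (log2 fold change 3.88, SE 0.13). These 3 enzymes had groups that did not overlap. Arg1, arginase 1, had 1 count at 2 h and 47 at 24 h (ratio 33.3, 95% exact interval 5.69 to 1343). Odc1, the first enzyme of polyamine synthesis, fell by 2.33 (SE 0.17).

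Nuclear-encoded subunits of the respiratory chain were slightly higher at 24 h. Of 76 tested, 52 rose and none fell in edgeR's test, with a median of 0.43 and a range from -0.16 to 0.99. With library totals the median was 0.60 and 63 rose. Sdhb, a subunit of complex II, was at 83.4, 87.1 and 77.6 CPM at 2 h and at 134, 158 and 151 CPM at 24 h (log2 fold change 0.84, SE 0.08, adjusted p = 2.18e-12). Atp5o, of the ATP synthase, was at 47.2, 51.6 and 46.8 CPM and then at 87.5, 108 and 93.9 CPM (log2 fold change 0.99, SE 0.09). The protein genes of the mitochondrial genome, a list added after seeing the data, moved the other way. Of 8 tested, 5 fell and none rose (median -0.50), and over all 13 the summed level was 5059 to 5378 CPM at 2 h and 2921 to 4403 CPM at 24 h. Much of the sum was mt-Co1, with means of 2768 CPM at 2 h and 2015 CPM at 24 h. The genes not tested, mt-Co2, mt-Atp8, mt-Atp6, mt-Co3 and mt-Nd4l, had means of at most 0.45 CPM at either time. mt-Cytb, of complex III, had a mean of 534 CPM at 2 h and 362 CPM at 24 h (log2 fold change -0.56, adjusted p = 1.62e-05). The count of lower genes was 5 or 6 in each of the 11 other fits, while the median moved to -0.31 without LPS 24 h library 3. Ghitm, a mitochondrial inner membrane protein that the study singled out, was at 102, 125 and 111 CPM and then at 153, 167 and 161 CPM (log2 fold change 0.50, SE 0.07, adjusted p = 1.10e-07).

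In glycolysis and lactate export, 14 of 23 tested rose and 3 fell (median 0.38, or 0.55 with library totals). Gapdh was at 427, 549 and 462 CPM and then at 758, 957 and 810 CPM (log2 fold change 0.81, SE 0.08), with exons that overlap Iffo1. Slc2a1, the main glucose carrier, was lower instead, at 76.7, 120.5 and 75.6 CPM after 149, 179 and 154 CPM (log2 fold change -0.83, SE 0.13). Hk2 was not called (0.09, SE 0.08), but was with library totals (0.26, adjusted p = 0.00514). Idh1 of citrate metabolism was not called either (-0.19, SE 0.10), and it passed the test without LPS 24 h library 2 (-0.37, adjusted p = 0.000946) and in the fit of all genes with at least 1 count (adjusted p = 0.0441). In the TCA cycle list, 7 of 24 rose and 4 fell, or 14 and 0 with library totals, and 3 rose without LPS 2 h library 3 or without LPS 24 h library 2. For fatty acid oxidation, 6 of 21 rose and 5 fell, or 9 and 1 with library totals, and 2 fell without LPS 2 h library 2. The shares higher and lower were 29.2% and 16.7% for the TCA cycle and 28.6% and 23.8% for fatty acid oxidation. Over all genes they were 22.5% and 24.9%, so both lists were near that background. Library totals also raised the number of higher genes over all genes, from 2613 to 3981.

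Sterol synthesis genes were lower at 24 h, with 14 of 23 lower, none called higher and a median of -0.67. With library totals 13 were lower and 2 higher. Insig1, which holds back the transcription factor SREBP and is itself its target, was at 95.52, 96.39 and 104.9 CPM at 2 h and at 19.2, 25.3 and 16.2 CPM at 24 h (log2 fold change -2.30, SE 0.14). Cyp51, a demethylase of the pathway, was at 45.1, 44.0 and 50.3 CPM and then at 11.1, 12.6 and 10.9 CPM (log2 fold change -2.01, SE 0.17), and its exons overlap Akap9. Both stood above the other group in every library at 2 h. Insig1 was above Control at 2 h by 1.42 (SE 0.13) and below it at 24 h by 1.10 (SE 0.15). Hmgcs1 was not analysed here. Among cholesterol efflux genes, 7 of 14 fell (50%) and 2 rose (14.3%), or 4 and 4 with library totals. Over all genes 24.9% were lower and 22.5% higher. Abca1 was at 1375, 1532 and 1429 CPM and then at 830, 843 and 836 CPM (log2 fold change -0.79, SE 0.06), and Abcg1, the second exporter, was at 202, 191 and 180 CPM and then at 305, 296 and 317 CPM (log2 fold change 0.68, SE 0.08).

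Cell cycle genes were lower at 24 h in 23 of 36 tested, with 2 higher and a median of -0.94. Mki67, a marker of dividing cells, was at 686, 554 and 667 CPM at 2 h and at 70.9, 62.4 and 62.6 CPM at 24 h (log2 fold change -3.28, SE 0.11, adjusted p = 2.47e-29). It had been higher than Control at 2 h by 1.68 (SE 0.10) and was lower than Control at 24 h by 1.63 (SE 0.12). Its rise at 2 h was not that of the list, of which 2 of 36 were called higher than Control and 34 were not called (median -0.02). At 24 h, 30 were lower than Control and 2 higher (median -1.04). Plk1, a mitotic kinase, was at 10.0, 6.37 and 7.99 CPM and then at 1.20, 2.32 and 0.459 CPM (log2 fold change -2.58, SE 0.35). The 2 members that rose were Ccne1 and E2f1, which act at entry into S phase, by 0.76 (SE 0.26) and 0.70 (SE 0.15). The call of Ccne1 was lost without LPS 2 h library 3 (adjusted p = 0.0628) or LPS 24 h library 1 (adjusted p = 0.100). In bulk RNA, fewer cells in cycle and less RNA per cell cannot be told apart.

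Cytosolic ribosomal protein genes fell in 31 of 35 tested, with a median of -0.44, or 24 and -0.27 with library totals. Rpl13 had the largest fall of the list, from 386, 422 and 363 CPM to 238, 280 and 239 CPM (log2 fold change -0.63, SE 0.08). Lysosomal genes fell in 17 of 38 (44.7%) and rose in 8 (21.05%), beside 24.9% and 22.5% over all genes. Their median was -0.15, or 0.02 with library totals. Atp6v0d2, a proton pump subunit, was at 144, 181 and 141 CPM at 2 h and at 6.68, 3.97 and 3.67 CPM at 24 h (log2 fold change -5.04, SE 0.25), and at 2 h it had not passed the test against Control (0.07, SE 0.16). In the NRF2 and antioxidant list, 10 of 22 rose and 8 fell. Slc7a11, the cystine carrier, and Nfe2l2, which encodes NRF2, fell by 1.69 (SE 0.14) and 1.67 (SE 0.06), Sod2 rose by 0.90 (SE 0.09), and Hmox1 was not called (0.10, SE 0.07) except with library totals (0.27, adjusted p = 0.00106). Among matrix proteases, 3 of 16 rose (18.75%) and 7 fell (43.75%). Mmp9 was at 24.0, 44.8 and 31.9 CPM and then at 224, 338 and 239 CPM (log2 fold change 2.95, SE 0.16), and the urokinase gene Plau was lower by 3.44 (SE 0.15). In the stress response list, 9 of 23 rose (39.1%) and 4 fell (17.4%), with Ddit3, which encodes CHOP, higher by 1.94 (SE 0.14) and Ppp1r15a lower by 3.94 (SE 0.10). The exons of Ddit3 overlap Mars. Clock genes rose in 5 of 17 (29.4%) and fell in 6 (35.3%), beside 22.5% and 24.9% over all genes. Per1 was higher by 1.29 (SE 0.17) and Bhlhe40 lower by 2.37 (SE 0.14), and 3 clock genes rose without LPS 2 h library 1 or 3. Of the 6 genes the study singled out, Abcg1 and Ghitm rose, Lrrc27 fell by 1.28 (SE 0.32), and Atf5, Syce2 and Fnip2 were not called.

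**Figure D3:**
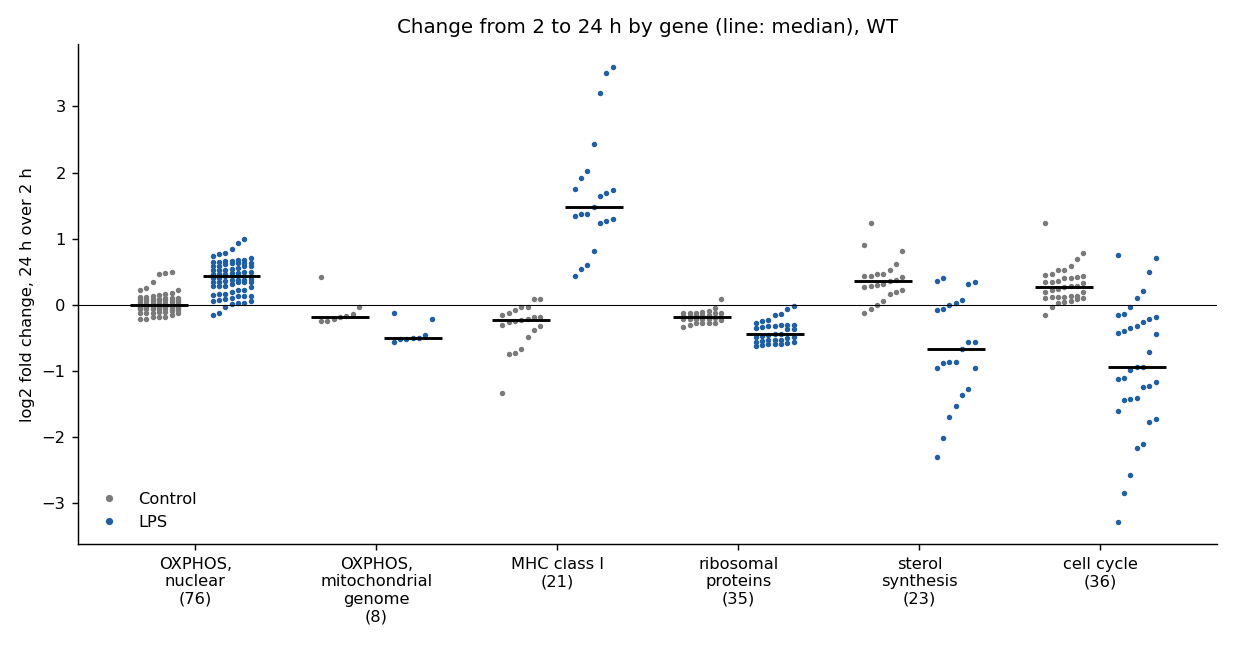
Each point is the log2 fold change of 1 gene at 24 h over 2 h in WT, in Control (grey) and with LPS (blue), and lines are medians. With LPS the medians are 0.43 for nuclear respiratory chain genes, -0.50 for those of the mitochondrial genome, 1.48 for MHC class I, -0.44 for ribosomal proteins, -0.67 for sterol synthesis and -0.94 for the cell cycle.

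Hours in culture change macrophages without LPS as well, so the same comparison was made in Control, which shares no library with the LPS groups. There 1328 genes were called (11.4%), 497 higher (4.28%) and 831 lower (7.15%), and with library totals 57.8% of the called genes were higher instead of 37.4%. Of the 5512 calls with LPS, 772 were also called in Control in the same direction, 14.01% of the LPS calls and 58.1% of the Control calls, and 231 were called in opposite directions. The early genes fell in Control too, in 19 of 24 immediate early genes (median -0.94) and 15 of 22 NF-kappaB genes (median -0.52). Tnf had means of 72.9 and 19.7 CPM in Control at 2 and 24 h. Interferon-stimulated genes were lower there in 14 of 33 and higher in none by edgeR's test (median -0.56), MHC class I genes lower in 9 of 21 and higher in none, and none of the 76 respiratory chain genes was called (median -0.01). Sterol genes were higher in 4 and cell cycle genes in 6, with medians of 0.36 and 0.27 and none called lower.

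The difference between the change with LPS and the change in Control was tested gene by gene as an interaction. It was called for 3786 genes (32.6%), of which 1686 had the higher change with LPS (14.5%) and 2100 the lower (18.1%), and with library totals 56.8% of the called genes were higher instead of 44.5%. Of the lists, 21 of 21 MHC class I genes, 25 of 33 interferon-stimulated genes, 11 of 14 GTPases and 33 of 76 nuclear respiratory chain genes were called higher. Of lists that were mostly lower, 16 of 24 immediate early genes, 14 of 22 NF-kappaB genes, 24 of 36 cell cycle genes and 14 of 23 sterol genes were called lower. Fewer were called in other such lists. Of 21 TNF and interleukin genes, 7 were called lower, 3 higher and 11 not at all. Of 19 chemokines, 7 were lower, 3 higher and 9 not called. Of 35 ribosomal protein genes, 14 were lower and 21 not called. Of the 8 mitochondrially encoded genes 1 was called, lower. For Fos the change with LPS and in Control did not differ in the test (difference -0.03, adjusted p = 0.912). Il6 and Ifnb1 were near 0 in Control at both times, and their difference did not pass the test either (adjusted p = 0.762 and 1). The same 6 LPS libraries stand in the comparisons with Control of the same hour, where 2686 genes (23.1%) were called at 2 h and 4594 (39.5%) at 24 h.

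**Figure D4:**
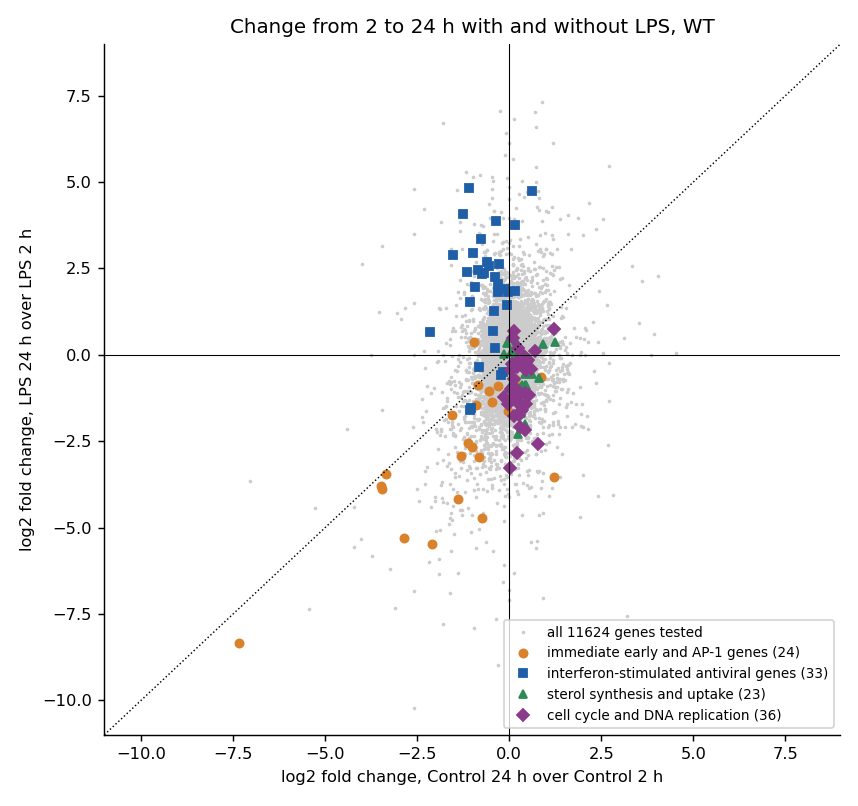
Each point is a gene, with its log2 fold change from 2 to 24 h in Control on the x axis and with LPS on the y axis, in WT. Coloured points are members of 4 lists, and the dotted line marks equal change: 29 of the 33 antiviral genes lie above it and 34 of the 36 cell cycle genes below.

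The libraries labelled KO gave the comparison a separate set of 6 libraries. The gene-level count of Irf5 was not lower under the KO label. It was at 430.5, 397 and 407 CPM in KO LPS 2 h and at 354, 372 and 343 CPM in KO LPS 24 h. At each hour every library labelled KO stood above every WT LPS library of the same hour, whose values are given above. Deletion of part of the gene need not lower a count over all its exons, so this checks nothing about the label, and the libraries are called those labelled KO. In them 5722 genes were called (49.2%), 2742 higher (23.6%) and 2980 lower (25.6%), and with library totals 62.9% instead of 47.9% of the called genes were higher. Of the WT calls, 4378 were also called in KO in the same direction, which is 79.4% of the WT calls and 76.5% of the KO calls, and 3 in the opposite direction. Antiviral genes were higher in 27 of 33, MHC class I genes in 21 of 21 and respiratory chain genes in 51 of 76 with 1 lower, immediate early genes were lower in 22 of 24, and all 8 mitochondrially encoded genes were lower.

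The change from 2 to 24 h of LPS differed between the genotype labels for 27 genes (0.232%), 19 with the higher change in KO (0.163%) and 8 with the lower (0.0688%). Lcn2 was at 17.5, 38.5 and 22.3 CPM in KO at 2 h and at 318, 276 and 336 CPM at 24 h, so that its change was smaller in KO by 1.93 on the log2 scale (adjusted p = 0.0032). Ccl5 was at 202, 203 and 210 CPM and then at 1829, 1811 and 1741 CPM, a smaller change by 0.62 (adjusted p = 0.00559). The summed granulocyte markers were at 118.5 to 205 CPM in KO LPS 2 h and 42.9 to 63.4 CPM in KO LPS 24 h, above the WT ranges given above, and their part in the difference for Lcn2 was not tested. Fos was at 47.8, 45.2 and 49.3 CPM and then at 45.5, 40.5 and 53.7 CPM in KO, and did not fall as in WT (difference 0.86, adjusted p = 0.00892). Irf5 fell less in KO (difference 0.36, adjusted p = 0.0374). The number of these genes rested on the fit: DESeq2 called 50, and a fit of the 12 libraries alone called 3.

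**Figure D5:**
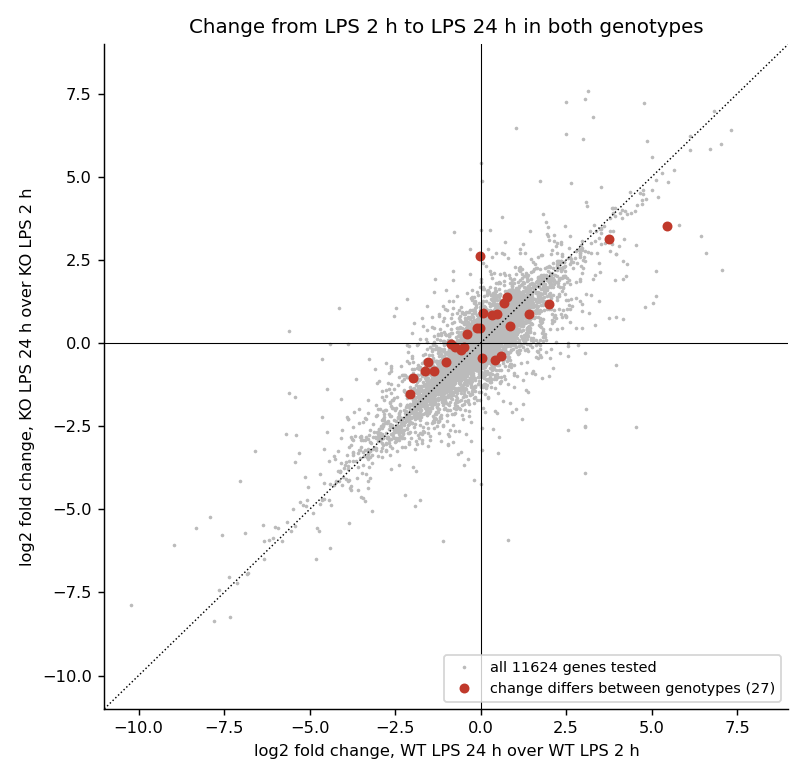
Each point is a gene, with its log2 fold change at LPS 24 h over LPS 2 h in WT on the x axis and in the libraries labelled KO on the y axis. The dotted line marks equal change, and red points are the 27 genes whose change differed between the labels.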

How the data were processed

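RNA was measured by stranded, ribosome-depleted RNA-seq. The authors deposited 1 table of raw counts per gene for 42 libraries (37310 Ensembl identifiers, none without a name, 12146 without a count). The submitters' processing notes name fastp 0.19.11 and STAR 2.7.3a with mm10. The annotation release and the strand setting of the counting were not given in the sources used here, so overlapping genes may share reads. Symbols and positions were taken from GENCODE M21 (32620 identifiers matched). Columns were mapped to groups by their names.

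Genes were filtered by expression and fitted with edgeR 4.0.16 in R 4.3.3 (quasi-likelihood test, TMM scaling, all 42 libraries, 1 mean per group), and 11624 genes with 99.9% of the counts were tested. Contrasts were LPS 24 h against LPS 2 h in WT, the same in Control and in KO, the differences between these changes, and LPS against Control at each hour. The 2 comparisons with Control of the same hour share the LPS libraries with the main comparison. Adjusted p-values are Benjamini-Hochberg over all genes tested. A fold against a group without counts was taken against 3 counts per library, and intervals are exact at 95% and cover counting error only. Library totals ranged from 3091726 to 6394819 in the 6 libraries. Every pair of replicates differed by more than sampling noise.

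Named genes were 61 fixed genes (60 in the table), the 10 largest changes per direction with at least 10 CPM and no overlap between groups, the 3 largest called members per list and direction, and the 5 smallest adjusted p-values per direction of each difference between changes. Other members are named where a count of 5 or fewer is spelled out. The genes, the 33 gene lists and the 7 marker lists were chosen with earlier results of these data known. The fit was tested on simulated data for WT LPS 24 h against LPS 2 h (11222 genes tested), where it recovered 65.3% of 2-fold and 98.9% of 4-fold changes with 5.39% false calls. The simulation changed 200 genes, as many up as down, and gave every gene the same spread. The real comparison had 5512 calls and a split that depended on the scaling, so these rates need not hold for it. Alternatives were DESeq2 1.42.0, its size factor method (RLE), library totals, no filter, a fit of the libraries compared, a log2 threshold of 1 and leaving out each library. Tables were summarised in Python 3.11.15 with pandas 2.3.3 and scipy 1.17.1. Results for some genes are not reported here.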

Additional observations from a re-analysis of the deposited data

Results flagged for a closer look

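The change from 2 to 24 h differed between LPS and Control in WT for 3786 genes in the test of the difference itself. The genes with the smallest adjusted p in the higher direction were H2-T22 (difference of log2 fold changes 3.82), C3 (3.42), Fcgr1 (3.93), Lgals3bp (3.10), which encodes a secreted binding partner of galectin 3, and Ms4a6c (2.26). In the lower direction they were Tnfaip3 (-3.69), Sdc4 (-3.39), a heparan sulfate proteoglycan, Tnfaip2 (-2.36), Ccl4 (-5.24), a chemokine, and Ppp1r15a (-4.15).

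The change from LPS 2 h to LPS 24 h differed between the libraries labelled KO and WT for 27 genes. The change was higher in KO for Fnip2 (0.55), Tent5c (0.81), Cd5l (0.98), Cd300lb (0.64) and Fos (0.86), and lower for Lcn2 (-1.93), Ccl5 (-0.62), S100a11 (-0.99), Tmem123 (-0.48) and Hist2h2ac (-0.93). Of these 10 genes, Ccl5 kept its call in every other fit run, and the other 9 lost theirs in at least 1.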

How the results depend on the processing

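No paired analysis was possible because the columns of the deposited table carry no replicate numbers. With a log2 threshold of 1 added, the calls were 1922 for LPS 24 h against LPS 2 h in WT (799 higher, 1123 lower), 202 in Control, 1572 for the difference between LPS and Control (664 higher, 908 lower), 1991 in KO, 2 for the difference between genotypes, 795 for LPS against Control at 2 h and 1534 at 24 h. With library totals 3981 genes were higher in the WT comparison. The 27 genes of the difference between genotypes became 67 with no filter, 50 with DESeq2 and 3 in a fit of the libraries compared. They became 7 without WT LPS 24 h library 2, 10 without KO LPS 2 h library 3, 11 without WT LPS 2 h library 1, 12 without KO LPS 24 h library 3, 13 without WT LPS 2 h library 3, KO LPS 2 h library 2 or KO LPS 24 h library 1, and 15 without KO LPS 24 h library 2. The cause was not tested.

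Leaving out 1 library at a time gave 4873 to 5166 calls in the WT comparison (2259 to 2514 higher, 2592 to 2707 lower), 931 to 1194 in Control, 3370 to 3640 for the difference between LPS and Control (1475 to 1650 higher, 1895 to 2019 lower), 5161 to 5329 in KO, 7 to 35 for the difference between genotypes, 2179 to 2405 for LPS against Control at 2 h and 3945 to 4230 at 24 h. No called value changed sign in these fits. The first LPS 2 h library is the shallowest, and genes near 1 CPM in it rest on a few counts, so that small differences there were not detectable at this depth.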
